A study of Mus musculus with 6 samples.

Results

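The complement genes of the mouse cerebellum were examined in bulk RNA-seq libraries from 6 male mice at postnatal day 60. These were 9 genes selected by symbol, C1qa, C1qb, C1qc, C4b, C3, C2, Cfb, Serping1 and C3ar1, out of 55098 genes in the deposited table. All 9 were found, and 8 of them passed the filter on low counts, Cfb being the exception. The study compared whole cerebellum of 3 wild-type animals (WT 1, 3 and 5) with that of 3 animals labelled as Slc39a14 knock-out (KO 2, 4 and 6). Slc39a14 encodes ZIP14, which carries manganese, zinc and iron into cells, and each animal gave 1 library. The sources used here do not give the strain, the altered part of the gene or the cells that lack it. The genes were chosen with the difference between KO and WT in these counts in view, so their own differences are given as a description without a test.

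Complement is a cascade of blood and tissue proteins that tags cells, debris and microbes for removal. In the classical pathway C1q binds a surface, its proteases cut C4 and C2, and the resulting enzyme cuts C3, whose fragments are read by receptors on phagocytes. Factor B, encoded by Cfb, builds the corresponding enzyme of the alternative pathway, and C1 inhibitor, encoded by Serping1, blocks the C1 proteases. In the brain C1q comes largely from microglia, and complement is known for its part in synapse removal and in the response of glia to injury and interferon.

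Promoter sequence bears on whether neighbouring members share short regulatory words, and the RefSeq promoter table (GRCm38.p6) held 4 of the 9 genes, namely C1qb, C1qc, C3 and C3ar1. The entries not in it were C1qa, C4b, C2, Cfb and Serping1. The 250 bases before the RefSeq start of each gene were searched on both strands for the core of the interferon-stimulated response element (GAAA, any 2 bases, GAAA), for the core bound by STAT proteins (TTC, any 3 bases, GAA) and for GAGGAA, the core bound by the myeloid factor PU.1. Shown are C1qb (chr4:136886201-136886450, minus strand) and C1qc (chr4:136893066-136893164, minus strand), 2 chains of the same protein, and C3 (chr17:57228137-57228386, minus strand) as one of the members, with C3ar1, that held none of these words. Capitals mark the PU.1 core, each sequence reading 5′ to 3′ toward the gene. The searched window of C1qc reached 151 bases into the gene as the deposited table places it, and the 99 bases outside the gene are printed.
C1qb: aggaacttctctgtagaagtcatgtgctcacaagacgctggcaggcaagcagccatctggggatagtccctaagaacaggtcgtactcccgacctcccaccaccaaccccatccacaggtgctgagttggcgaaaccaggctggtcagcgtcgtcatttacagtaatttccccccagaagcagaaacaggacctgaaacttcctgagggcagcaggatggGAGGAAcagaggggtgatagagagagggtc
C1qc: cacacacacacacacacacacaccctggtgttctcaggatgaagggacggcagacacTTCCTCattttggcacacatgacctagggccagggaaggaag
C3: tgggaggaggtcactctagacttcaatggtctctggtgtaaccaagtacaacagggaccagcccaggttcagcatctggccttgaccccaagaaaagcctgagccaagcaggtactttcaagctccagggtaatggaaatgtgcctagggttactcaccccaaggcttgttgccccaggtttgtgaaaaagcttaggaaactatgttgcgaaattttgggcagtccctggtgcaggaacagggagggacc
C1qb held GAGGAA from 30 to 25 bases before its RefSeq start, and C1qc held the reverse complement from 193 to 188 bases before its own. This word was present in 23.3% of 32851 promoter windows of the same length. None of the 4 windows held the interferon-stimulated response element core (2.98% of all windows) or the STAT core (7.02%). These are letter matches in 1 short window per gene and describe no binding.

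Libraries held 13805997 to 15788135 gene counts, so that 1 count was worth 0.0629 to 0.0733 CPM (counts scaled to library size and by TMM factors). On the first principal component, which held 29.6% of the variance in 1000 genes, WT 5 and KO 4 (-25.9 and -15.4) stood away from the rest (4.80 to 15.2). On the second, which held 26.9%, the WT libraries lay at 10.3 to 17.4 and the KO libraries at -17.6 to -7.84. Slc39a14 itself had 582, 646 and 598 counts in the WT libraries against 654, 572 and 640 in the KO libraries, which did not check the genotype labels, and KO below means the libraries labelled so. Markers of cerebellar neurons were present in every library, with Car8 of Purkinje cells at 1199 CPM and Cbln3 of granule cells at 1266 CPM in WT. In a fit over 17142 genes 8 passed an adjusted p of 0.05 (edgeR quasi-likelihood test with Benjamini-Hochberg adjustment), which is 0.0467% of the genes tested. The labels name separate animals but no litter or batch.

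Of the 9 complement genes, C4b showed the widest gap between the groups. C4b encodes the C4 protein, which binds covalently to surfaces and forms part of the classical C3-cutting enzyme. Its counts were 216, 299 and 264 in WT 1, 3 and 5, against 486, 589 and 873 in KO 2, 4 and 6. In CPM this was 15.7, 19.1 and 19.4 in WT and 30.6, 41.1 and 62.7 in KO. The groups did not overlap, and the KO libraries were spread more widely (44.8 ± 16.4 CPM in KO against 18.0 ± 2.05 in WT, SD, n = 3 each). The fitted log2 fold change was 1.31 (SE 0.23, 95% interval 0.79 to 1.83), and 0.531% of the 17142 genes tested had a value at least as high. Without KO 6, the library with the highest level, it was 0.99.

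C4b has a close copy, C4a, annotated as a processed transcript at 34809092 to 34823464 on chromosome 17, and C4b lies at 34728380 to 34743882 (GRCm38.p6, minus strand). In GENCODE M21 transcripts 35.2% of all stretches of 50 bases in the longest C4b transcript were also present in C4a. A read lying wholly within such a stretch matches both genes, and the share of reads concerned was not measured. C4a was at 2.25, 1.79 and 1.98 CPM in WT against 0.629, 1.05 and 2.15 in KO, a low level with overlapping groups (log2 fold change -0.66, SE 0.44, edgeR adjusted p = 1.0). With both copies added, the level was 17.9, 20.9 and 21.3 CPM in WT against 31.2, 42.2 and 64.8 in KO. The gap between the groups was thus present in the sum as in C4b.

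The C1q chains were also higher in KO, by less than C4b. C1qa, C1qb and C1qc encode the A, B and C chains that together form the recognition molecule of the classical pathway, and they lie side by side on chromosome 4 (136880129 to 136898803 from the first to the last). C1qa was at 8.57, 7.21 and 7.48 CPM in WT against 10.9, 11.1 and 17.7 in KO. C1qc was at 6.32, 7.40 and 8.22 CPM in WT against 8.24, 10.1 and 13.6 in KO. Neither gene overlapped between the groups, although for C1qc the gap between WT 5 and KO 2 was within the worth of 1 count. C1qb was at 9.29, 10.08 and 7.77 CPM in WT against 10.06, 9.64 and 16.2 in KO. Here KO 4 lay below WT 3, and so did KO 2, by less than the worth of 1 count. In all 3 chains KO 6 was the highest library. Log2 fold changes were 0.77 for C1qa (SE 0.22), 0.54 for C1qc (SE 0.22) and 0.40 for C1qb (SE 0.23). Without KO 6 they were 0.51, 0.33 and 0.12.

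**Figure D1:**
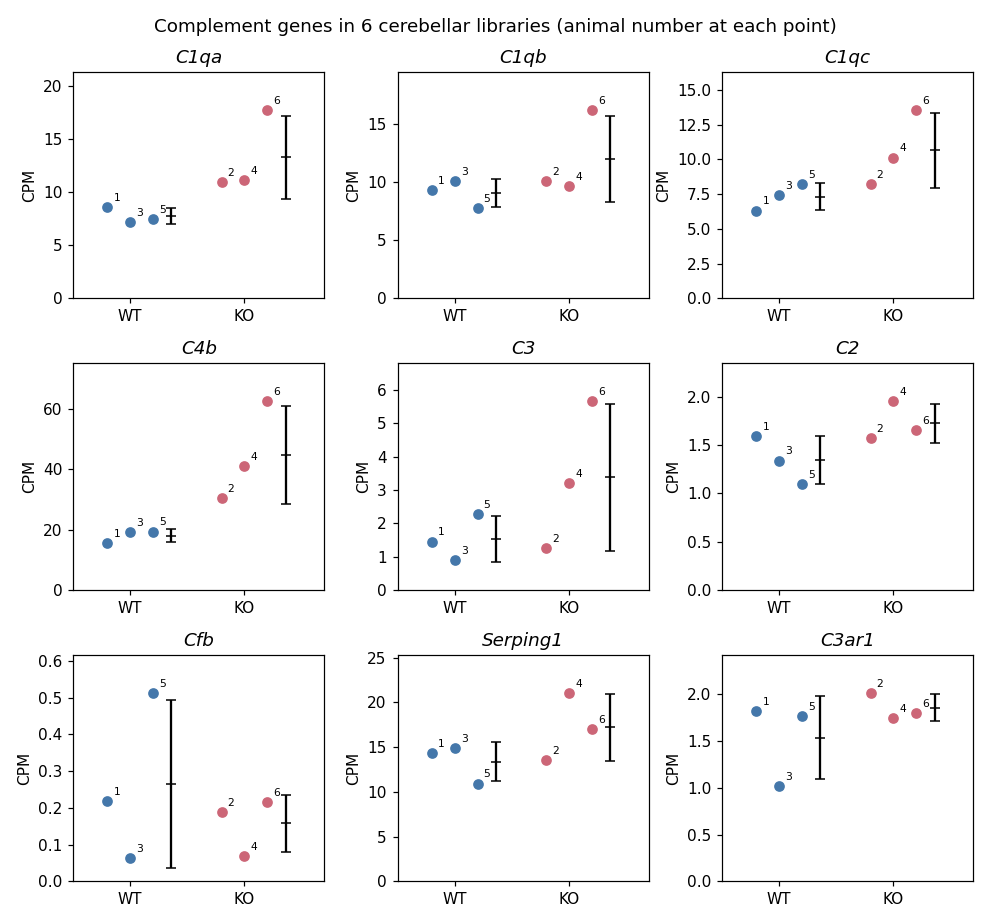
CPM of each complement gene in the 3 WT (blue) and 3 KO (red) libraries, with the animal number at each point and the mean ± SD in black; each axis starts at 0. C4b, C1qa and C1qc do not overlap between the groups, and KO 6 is the highest library in C4b, C3 and the 3 C1q chains.

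Per length, C1qa made up a larger share of the summed C1q level in every KO library than in any WT library. In deposited FPKM (a level scaled for gene length and library size), its share was 38.1% ± 3.27 in WT and 43.5% ± 0.384 in KO (SD, n = 3 each). The share of C1qb was 42.4% ± 3.92 in WT and 37.5% ± 1.51 in KO, and that of C1qc was 19.4% ± 3.29 and 19.0% ± 1.90. By these means C1qb led in WT and C1qa in KO. The lowest share of C1qa in KO was 43.1% and the highest in WT 41.1%. The deposited length of C1qc was 1931 bases and its longest GENCODE M21 transcript 1203 bases, so the size of all 3 shares depends on the length used.

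C3, C2 and Cfb were scarce. C3 encodes the central component that all pathways cut, and it lies on chromosome 17 (57203970 to 57228136). It had 20, 14 and 31 counts in WT against 20, 46 and 79 in KO. In CPM these were 1.45, 0.893 and 2.27 in WT and 1.26, 3.21 and 5.67 in KO, so that KO 2 lay below WT 1 and WT 5. The log2 fold change was 1.13 with a wide error (SE 0.53, 95% interval -0.05 to 2.31). Its size rested on KO 6, without which it was 0.54, and it was 1.53 without KO 2.

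C2 and Cfb encode the proteases of the C3-cutting enzymes and lie next to each other on chromosome 17 (C2 34862604 to 34898265, Cfb 34856374 to 34862518). C2 had 22, 21 and 15 counts in WT against 25, 28 and 23 in KO, and the groups overlapped in CPM (1.35 ± 0.248 in WT and 1.73 ± 0.202 in KO, SD, n = 3 each), with a log2 fold change of 0.36 (SE 0.32). Cfb had 3, 1 and 7 counts in WT against 3, 1 and 3 in KO. The ratio of KO to WT of its summed counts was 0.629, with an exact 95% counting interval of 0.207 to 1.78, so no difference was detectable at this depth. Both counts are uncertain for another reason. The joint gene Gm20547 spans C2 and Cfb and was listed at 0 counts in all 6 libraries, and it holds 81.4% of the 50-base stretches of the longest Cfb transcript and 58.0% of those of C2. C2 also overlaps Zbtb12 on the opposite strand, and the sources used here do not say how shared reads and strand were treated.

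Serping1 encodes C1 inhibitor, the protein that removes activated C1 proteases (chromosome 2, 84765387 to 84775444). It was at 14.3, 14.9 and 10.9 CPM in WT against 13.6, 21.1 and 17.0 in KO. KO 2 lay below WT 1 and WT 3, and KO 4 was the highest (log2 fold change 0.36, SE 0.19). C3ar1 encodes the receptor for the C3a fragment, found on microglia and other myeloid cells (chromosome 6, 122847138 to 122856161). It was at 1.81, 1.02 and 1.76 CPM in WT against 2.01, 1.75 and 1.80 in KO. Only WT 3 stood apart, at the low end (log2 fold change 0.28, SE 0.33, and 0.06 without WT 3).

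Across the list, 8 of 8 tested members were positive on the log2 scale and their median was 0.47, while over all genes tested the median was -0.004 and 48.8% were positive. By edgeR 0 of 8 passed an adjusted p of 0.05 over all genes (0.0467% of all genes passed), and 3 had an unadjusted p under 0.05, namely C4b, C1qa and C1qc (2.75% of all genes did). The count was 0 by limma-voom as well. DESeq2 called 1 member, C4b, where it called 0.119% of 32040 genes, and C4b was also the 1 member called in the authors' deposited table (0.128% of 29692 genes). In the same 3 members the lowest KO library exceeded the highest WT library, as in 3.58% of all genes tested. Because these genes were selected from this comparison, the counts describe them and add no support.

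An order by level per length depends on the gene length used. The deposited length exceeded the longest GENCODE M21 transcript most for C1qc (1931 against 1203 bases), Serping1 (2325 against 1768) and C2 (3872 against 2641). For C1qa, C1qb and C3ar1 these lengths were equal. By deposited FPKM, the order in WT was C1qb, C1qa, Serping1, C1qc and C4b, at 7.96 ± 0.997, 7.14 ± 0.634, 5.51 ± 0.860, 3.63 ± 0.494 and 3.04 ± 0.358 FPKM (SD, n = 3). C1qb and C1qa overlapped in their libraries, as did C1qc and C4b, while Serping1 stood clear of its neighbours in that order. C3ar1, C2, C3 and Cfb followed at 0.341, 0.333, 0.287 and 0.090 FPKM, and the first 3 of these overlapped. In KO the order was C1qa, C1qb, C4b, Serping1 and C1qc, at 12.1 ± 3.55, 10.4 ± 3.23, 7.46 ± 2.74, 7.03 ± 1.54 and 5.23 ± 1.34 FPKM. Each of these overlapped its neighbour. By mean, C4b stood above Serping1 and C1qc, which it had followed in WT. Over Serping1 this rested on KO 6 (10.5 against 6.95 FPKM). In KO 2 and KO 4 C4b was below Serping1 (5.08 against 5.53 and 6.86 against 8.61 FPKM).

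Levels of the members were set beside marker lists measured in the same libraries, because in whole tissue more cells of a type and more RNA per cell cannot be told apart. The 20 microglia markers summed to 151, 162 and 158 CPM in WT against 179, 206 and 222 in KO, none of them at 0. Over all genes tested 48.8% were positive, 0.0467% passed by edgeR or limma-voom, and 2.75% had an unadjusted p under 0.05 by edgeR. DESeq2 called 0.119% of 32040 genes. Of the 20 microglia markers 18 were positive (median log2 fold change 0.43), and 0 passed by edgeR or limma-voom and 1 by DESeq2. By edgeR 8 of them had an unadjusted p under 0.05, 7 higher and 1 lower in KO. The lower one, named after its values were seen, was the microglia gene Fcrls, at 3.92, 3.19 and 1.91 CPM in WT against 1.89, 1.75 and 1.58 in KO. The gap between WT 5 and KO 2 was below the worth of 1 count, and its log2 fold change was -0.79 (SE 0.32), with an edgeR adjusted p = 1.0. The sensors P2ry12 and Cx3cr1 were at 0.001 and 0.11 on the log2 scale, and Csf1r, the most abundant of the list, was at 0.19 (SE 0.13). The lysosomal protease Ctss was at 1.01 and the signalling adaptor gene Fcer1g at 0.95. Summed C1q was 24.2, 24.7 and 23.5 CPM in WT against 29.3, 30.9 and 47.5 in KO. As a share of the summed microglia markers it was 16.1%, 15.2% and 14.8% in WT and 16.3%, 15.0% and 21.4% in KO. In KO 2 and KO 4 C1q thus stood to the microglia markers much as in WT, and in KO 6 it was higher. The part of microglia in the C1q difference was not tested.

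Relative to C1q, C4b was higher in every KO library than in every WT library. Its ratio to summed C1q in CPM was 0.649, 0.773 and 0.825 in WT and 1.05, 1.33 and 1.32 in KO. The 20 interferon response genes, a list written with earlier results known, summed to 180, 178 and 175 CPM in WT against 325, 304 and 388 in KO. In this sum KO 6 was highest, as for C4b, and KO 4 was lowest of the KO libraries, where for C4b it was KO 2. Stat2, the largest term of the sum, was itself lowest in KO 4, at 120, 93.2 and 132 CPM in KO 2, 4 and 6. All 20 were positive (48.8% of all genes tested), with a median log2 fold change of 1.74. By edgeR 6 passed and by limma-voom 5 (0.0467% of all genes by each), and by DESeq2 14 (0.119%). In 17 every KO library exceeded every WT library (3.58% of all genes tested). Stat2, a transcription factor of interferon signalling, had the lowest log2 fold change of the 20. It was also the most abundant, at 104 ± 10.4 CPM in WT against 115 ± 19.7 in KO with overlapping groups (SD, n = 3 each; 0.15 on the log2 scale, SE 0.14, edgeR adjusted p = 1.0). Ifi27, a membrane protein induced by interferon, came next (11.6 ± 1.15 CPM in WT against 35.4 ± 6.44 in KO, SD, n = 3 each; a difference of 1.60 on the log2 scale, SE 0.16, edgeR adjusted p = 0.0126). Across the 6 libraries the correlation of log2 CPM between C4b and the mean of the interferon genes was 0.94, and between deviations from the group means it was 0.86. Other members varied with this list too, C1qc at 0.83 and 0.94, C1qa at 0.87 and 0.54, C1qb at 0.63 and 0.49 and C3 at 0.64 and 0.69. Between deviations C2, Serping1 and C3ar1 were negative, at -0.64, -0.23 and -0.16. For C4b the same figures with the microglia list were 0.93 and 0.66, with the 4 tested border macrophage markers 0.91 and 0.91, and with the astrocyte list 0.59 and 0.65. C3, C1qc and C1qa also varied with the border macrophage list, at 0.95, 0.94 and 0.91 over the libraries and 0.94, 0.88 and 0.85 between deviations. These points share libraries and groups, and the values are descriptive. Astrocyte and Bergmann glia markers, a further known source of C4, overlapped between the groups at 5028 to 5444 CPM in WT against 5163 to 5492 in KO, with Slc1a3 at -0.03 and Aldoc at 0.08 on the log2 scale.

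**Figure D2:**
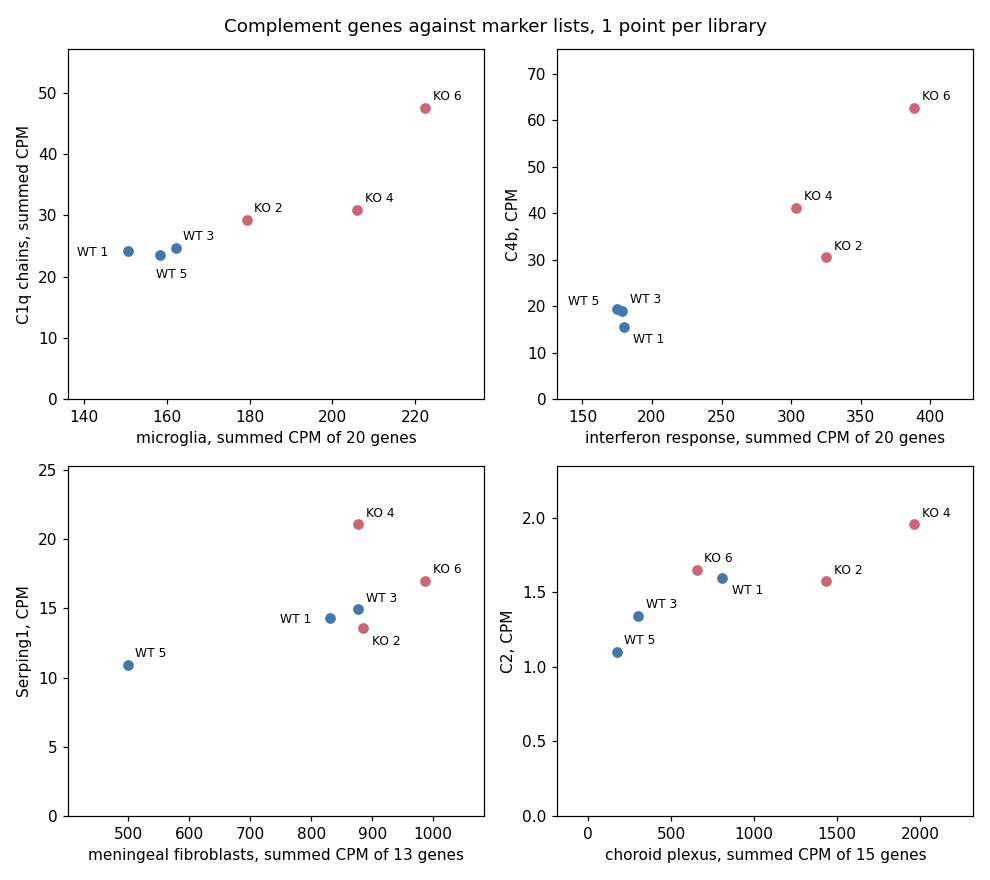
Summed C1q against microglia markers, C4b against interferon response genes, Serping1 against meningeal fibroblast markers and C2 against choroid plexus markers, in CPM, with 1 point per library (WT blue, KO red; vertical axes start at 0, horizontal axes do not). KO 6 is highest in C1q, C4b, microglia markers and interferon genes, and WT 5 is lowest in Serping1, C2 and both border tissue lists.

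Serping1 and C2 were also set beside markers of the tissues that border the cerebellum. Meningeal fibroblast markers summed to 499 CPM in WT 5, where Serping1 was lowest, and to between 832 and 986 CPM in the other 5 libraries. Ptgds and Col1a2, the most abundant of the 13, were at 0.33 and 0.22 on the log2 scale. Choroid plexus markers summed to 808, 301 and 172 CPM in WT against 1433, 1963 and 654 in KO, with all 15 positive (48.8% of all genes tested). None passed by edgeR or limma-voom (0.0467% of all genes by each) or by DESeq2 (0.119%). By edgeR 13 had an unadjusted p under 0.05 (2.75% of all genes did). Ttr was at 340 ± 288 CPM in WT against 1148 ± 555 in KO (SD, n = 3 each), and the transmembrane protein gene Kl at 1.31 on the log2 scale. The correlation over 6 libraries was 0.90 between Serping1 and the meningeal list and 0.92 between C2 and the choroid plexus list, and between deviations from the group means these were 0.89 and 0.85. C2 with the meningeal list stood at 0.92 and 0.95, and Serping1 with the choroid plexus list at 0.72 and 0.52. Both genes also varied with the microglia list, Serping1 at 0.82 and 0.78 and C2 at 0.80 and 0.52. For C4b the values over the libraries were 0.35 with the meningeal and 0.42 with the choroid plexus list, and between deviations they were -0.15 and -0.65. With WT 5 and KO 4 both left out, the log2 fold changes of Serping1 and C2 were 0.07 and 0.14, and that of C4b was 1.42. The part of these tissues in the differences of Serping1 and C2 was not tested.

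The remaining lists overlapped between the groups. Border macrophage markers summed to 11.4 to 12.9 CPM in WT against 11.95 to 14.8 in KO, with Mrc1 at 0.18 and Cd163 at -0.01 on the log2 scale. Endothelial and mural markers were at 441 to 477 CPM in WT against 460 to 538 in KO (Slc2a1 0.31, Rgs5 0.23). Of these 10 genes 6 were positive and 4 negative, with a median log2 fold change of 0.05 and a lowest of -0.11. Blood cell genes were at 45.0 to 74.4 CPM in WT against 47.3 to 65.0 in KO (Hbb-bs 0.06, Hba-a1 0.13). Of these 5 genes 2 were positive and 3 negative, with a median log2 fold change of -0.04 and a lowest of -0.61. No gene of these 3 lists was at 0 in all libraries.

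Between members, C4b and C1qc varied most alike. Their log2 CPM had a correlation of 0.96 over 6 libraries and of 0.98 between deviations from the group means. C4b with C1qa stood at 0.93 and 0.74, C1qa with C1qb at 0.87 and 0.86, and C3 with C1qc at 0.88 and 0.83. C2 and Serping1 were alike (0.89 and 0.82), while C4b with C2 stood at 0.58 over the libraries and -0.17 between deviations. C3 with C1qb was lower, at 0.57 and 0.38. Over the libraries that is below C4b with Serping1 (0.63) and C1qa with C2 (0.62), which stood at 0.24 and 0.05 between deviations. Ranked by likeness to C4b among 17141 other genes, C1qc came 20th and C1qa 54th, C3 307th and C3ar1 3478th.

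Of 13685 other protein-coding genes at a mean level of 1 CPM or more, those most like C4b were Hpgds, a prostaglandin D synthase of haematopoietic cells, Ecscr, Ctss, the IgG receptor gene Fcgr1 and Dnttip1, with correlations of 0.98 to 1.00 over 6 libraries. Fcgr1 was also among the genes most like C1qa, after Aspg, Vps11, Tmem267 and Slc7a6 (0.97 to 0.99). Those most like C3 were Rbl2, Six4, Tcirg1, 2510002D24Rik and Fgd2 (0.96 to 0.98). Likeness here goes by pattern and not by size of change. Log2 fold changes ran from 0.24 (Dnttip1) to 1.11 (Fcgr1) for the genes most like C4b. For those most like C1qa they ran from 0.19 (Vps11) to 1.11 (Fcgr1), and for those most like C3 from 0.04 (Rbl2) to 0.62 (Fgd2). All these genes are given as a description over 6 points that share groups and libraries.

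The rest of the pathway was examined in 49 further complement genes, of which 26 were tested. By edgeR 0 of 26 passed in either direction (0.0467% of all genes passed), as by limma-voom (0.0467%) and DESeq2 (0.119%). By edgeR 2 had an unadjusted p under 0.05, C1ra higher and Cd59a lower (2.75% of all genes did). The 26 had 13 positive values and a median log2 fold change of 0.003, against -0.004 over all genes. The groups did not overlap in C1ra and Cd93, both higher in KO (3.58% of all genes tested), nor in Cd59a, lower in KO (3.68%). For C1ra the gap between WT 5 and KO 2 was within the worth of 1 count. Listed at 0 counts in all 6 libraries were Mbl1, Colec10, Cfd, C8a, C8b, C9, C4bp, Cd55b and Vsig4.

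The proteases that work with C1q had positive log2 fold changes that did not pass the test. C1ra, which activates C1s, had 8, 9 and 20 counts in WT against 24, 27 and 29 in KO, a difference of 1.06 on the log2 scale (SE 0.43, edgeR adjusted p = 1.0). C1s1, which cuts C4 and C2, had 8, 13 and 26 counts in WT against 25, 42 and 19 in KO, with overlapping groups (0.82, SE 0.49, edgeR adjusted p = 1.0). Their copies C1rb and C1s2 had 3 and 26 counts over all libraries together and were not tested. In the lectin pathway Colec12 and Masp1 were at 0.07 (SE 0.16) and 0.06 (SE 0.14), and properdin, Cfp, which stabilises the alternative enzyme, was at 0.11 (SE 0.17). Of the terminal components that form the membrane pore, C8g alone was tested, at -0.13 (SE 0.24).

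Regulators of complement did not pass the test either. The fluid-phase proteins clusterin, Clu, and vitronectin, Vtn, which bind the forming pore, were at 0.09 (SE 0.11) and 0.04 (SE 0.13), and Cfi had 4 counts in WT and 1 in KO. Of 12 tested membrane regulators 10 were negative and 2 positive, with a median of -0.11, while 48.8% of all genes tested were positive. The highest was Cd55, at 0.63 (SE 0.35), and some were close to 0, such as Sez6 at -0.001 (SE 0.17). Both were named after their values were seen. Cd59a, which blocks the pore on the cell's own membrane, was at 7.55, 17.7 and 13.4 CPM in WT against 7.42, 7.54 and 5.31 in KO. The gap between WT 1 and KO 4 was within the worth of 1 count (log2 fold change -0.93, SE 0.29, edgeR adjusted p = 1.0). Its neighbour and copy Cd59b was at -0.93 (SE 0.47). The neuronal genes Sez6l2 and Sez6l, the most abundant of this group, were at -0.13 (SE 0.15) and -0.05 (SE 0.12).

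Receptors for complement fragments also did not pass. Itgam and Itgb2, which encode the subunits of complement receptor 3 of microglia, were at -0.01 (SE 0.35) and 0.42 (SE 0.35). C1qbp, a mitochondrial protein that binds C1q, and Cd93, a surface protein of endothelium, were at 0.08 (SE 0.11) and 0.29 (SE 0.15). Itgax, a further integrin subunit, was below the filter on low counts, with 1, 2 and 1 counts in WT against 4, 9 and 11 in KO, and was named after its values were seen.

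**Figure D3:**
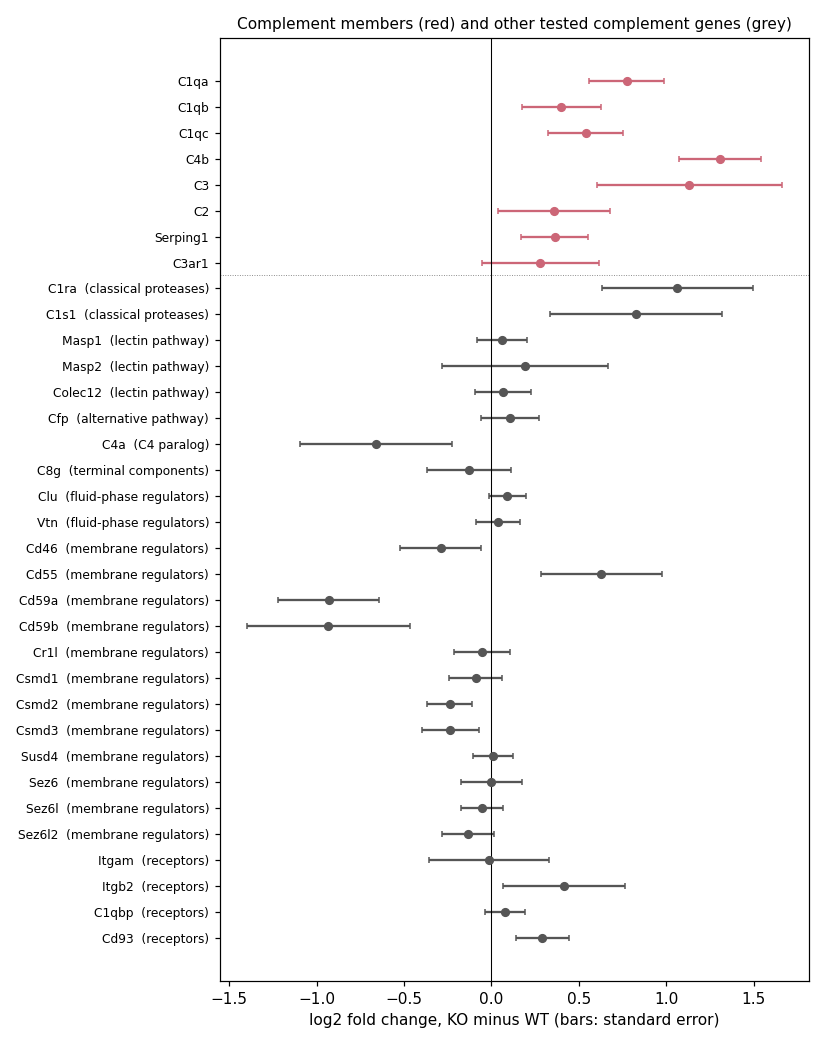
Log2 fold change, KO minus WT, with its standard error, for the 8 tested members (red) and the 26 other tested complement genes (grey), labelled by role. All members lie to the right of 0, and the other genes spread from -0.93 to 1.06 with C1ra and C1s1 at the upper end.

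**Figure D4:**
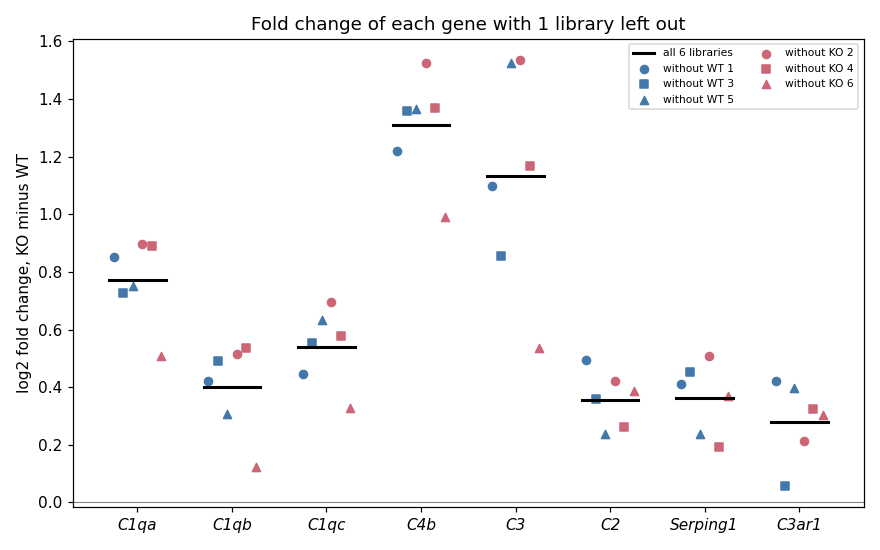
Log2 fold change, KO minus WT, of each tested member with all 6 libraries (black line) and with 1 library left out (blue for a WT library, red for a KO library). Every value is above 0, and leaving out KO 6 gives the lowest value for the C1q chains, C4b and C3.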

How the data were processed

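Per the labels' protocols, total RNA of whole cerebellum from 6 mice was isolated by a TRIZOL method, and a company prepared the libraries. HISAT2, DESeq2 and the build GRCm38.p6 are named, without versions, in the submitters' processing notes; the sources used here give neither the counting program nor its strand setting. The authors deposited raw integer counts for each gene and library, and the deposited FPKM columns hold values per gene length and library. The authors' group means are a signal (normalized counts), and their log2 fold changes and p-values compare KO with WT, per the file headers.

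KO was compared with WT on the counts by edgeR 4.0.16 (R 4.3.3, quasi-likelihood F test, TMM, filterByExpr by group, 17142 genes, Benjamini-Hochberg adjustment, calls under 0.05). The standard error was taken as the size of the log2 fold change divided by the square root of F. Correlations used log2 CPM with a prior count of 2. Pairs of libraries differed by chi-square values of 5.30 to 22.4 per degree of freedom, so none was a copy of another. Counting intervals cover counting error only. DESeq2 1.42.0, limma 3.58.1 (voom), other factors and filters and left-out libraries were alternatives. The fit was tested on simulated data. Python 3.11.15, pandas 2.3.3 and matplotlib 3.10.9 served for tables and figures.

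The members and lists were chosen with earlier results of these data known. Genes named were Slc39a14, the 9 members, in each role or list the 2 tested genes with the highest mean CPM, 8 complement genes given in any case, and the 5 genes most like C4b, C1qa and C3; others are named as part of a count, for their role or after their values were seen. One gene of the wider complement list is not reported here and was left out of its counts. Protein sequences were not used here.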

Additional observations from a re-analysis of the deposited data

How the results depend on the processing

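All 8 tested members kept a positive log2 fold change under all 14 alternatives, and their median ranged from 0.38 without KO 6 to 0.61 without KO 2. The number of members called was 2 without the low-count filter (C4b and C1qa) and 1 by DESeq2 (C4b), and that of other complement genes was 1 without the filter (Cd59a). With 1 library left out these 2 counts were 0 in each case. Genes called over all genes were 142 without the filter, 38 by DESeq2 and 40 with WT 5 and KO 4 both left out, and from 0 (without WT 1 or WT 3) to 28 (without WT 5) with 1 library left out. The causes were not tested. No paired analysis was possible because the groups share no animal number. Low counts limit Cfb (1 to 7 per library), C2 (15 to 28), C3ar1 (16 to 32) and C3 (14 to 79).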
